A study of Homo sapiens with 4 samples.

Results

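The genes described here are 35 named genes of the mitotic spindle, the spindle checkpoint and cytokinesis, without cyclins, cyclin-dependent kinases or the main mitotic kinesins. They were taken by name, with earlier results of these data known, so their counts describe them and test nothing. All 35 were among the 14055 genes listed in all 4 tables. Expression was measured by RNA sequencing of Huh7 cells, a human hepatoma line, at passage 3. The ISL1 group (2 libraries) was given ISL1, a transcription factor of the LIM-homeodomain class, on a lentivirus, and the blank group (2 libraries) received a blank lentivirus. Every library thus comes from cells that met a lentivirus. The vector's promoter, the time after infection and whether the duplicates were separate cultures are not given in the sources at hand, so a p-value reflects library-to-library spread alone, part of which may be technical. The second ISL1 library is titled ISL2-2. It was placed in the ISL1 group because the study text speaks of duplicates of ISL1 and of blank virus and of no other arm. A pair means the ISL1 library and the blank library that carry the same replicate number.

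At mitotic entry CDC25 phosphatases switch on CDK1, and Polo and Aurora kinases build the spindle. The spindle checkpoint holds back the anaphase-promoting complex, a ubiquitin ligase, until every kinetochore has microtubules. CDC20 then activates that ligase, which marks securin and the mitotic cyclins for destruction, and the midzone and the contractile ring divide the cell. Most of these genes are transcribed in waves that peak in G2 and mitosis, so in a mixed culture their RNA follows how many cells are dividing. In these bulk libraries a larger share of dividing cells and more RNA per dividing cell cannot be told apart.

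Of the 35 genes, 31 (88.6%) stood higher in the ISL1 library than in the blank library in both pairs, 4 had opposite signs and 0 stood lower in both. Over the 11085 genes tested the shares were 23.1%, 57.8% and 19.1%. The median difference, on the log2(RPKM + 1) scale, was 0.85 in the first pair, then 0.57 in the second, against -0.0021 and 0.06 over all genes tested. RPKM is a read number scaled to transcript length and to the mapped reads of the library, and a gene was tested if it had at least 1 RPKM in at least 2 libraries, which all 35 did. With median-ratio scaling the count higher in both pairs was 29, against 19.8% of all genes tested. The count fell because MAD2L1 and TOP2A turned to -0.0074 and -0.03 in the second pair. That scaling moved the second pair's median over all genes to -0.11.

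No gene of the 35 passed the pooled test of 2 ISL1 libraries against 2 blank libraries (limma on log2(RPKM + 1), adjusted p = 1.00 for each). At an unadjusted p under 0.05 the count was 0 of the 35. Of all 11085 genes, 0 passed in either direction (0% higher, 0% lower), and 15 had an unadjusted p under 0.05. An exact permutation test of 2 libraries against 2 cannot give a p below 0.333. The replicate numbers differ far more than the groups do, as the levels below show, and this spread sits in the error of the pooled test. Limma with the replicate number as a block also passed 0 genes. In that fit 12 of the 35 and 260 of all 11085 genes had an unadjusted p under 0.05. The results are therefore given within each pair, where there is 1 library a group and no test.

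**Figure D1:**
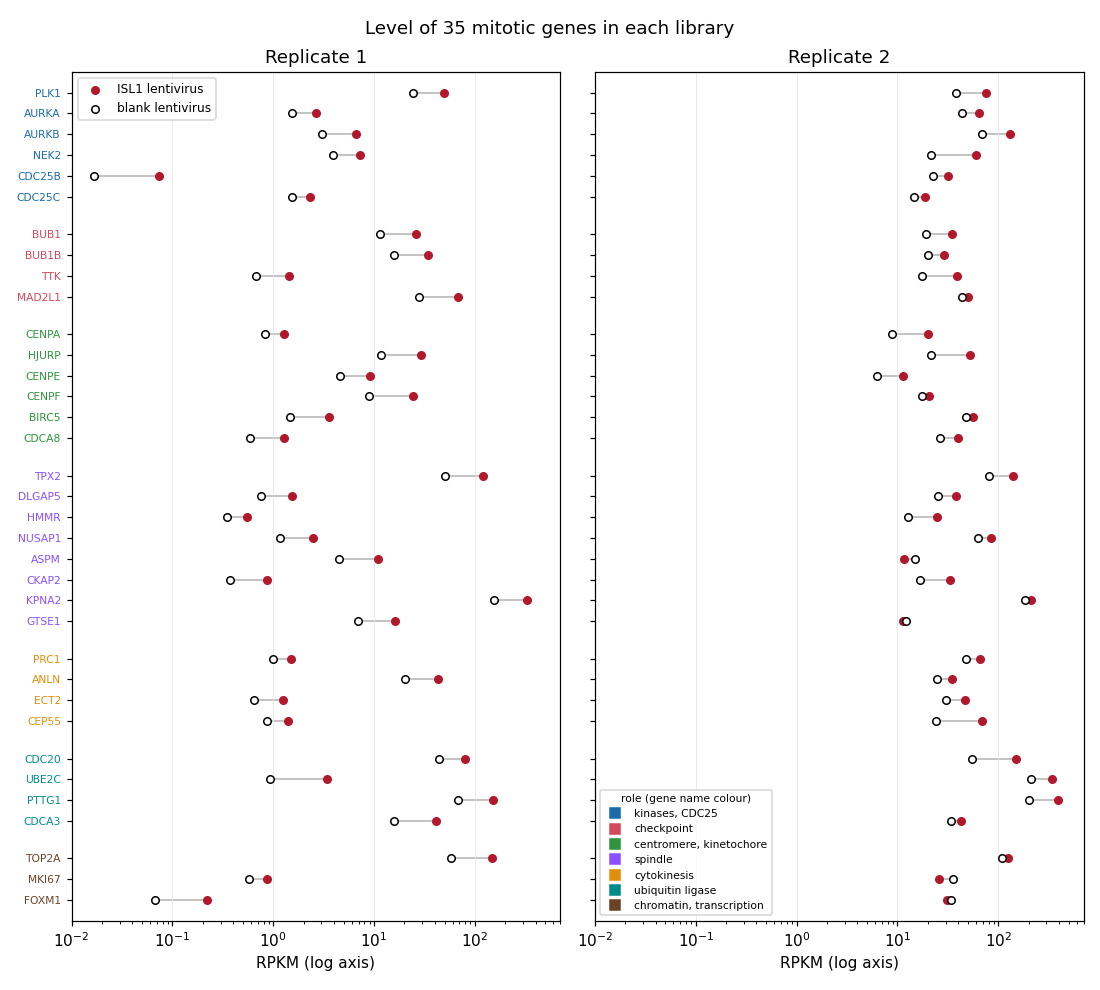
Level of each of the 35 genes in RPKM on a log axis, with ISL1 libraries as filled points and blank libraries as open points, for replicate 1 (left) and replicate 2 (right). The filled point lies to the right of the open one for all 35 genes in replicate 1 and for 31 in replicate 2. The share of all genes tested that stood higher in a single pair was not worked out. All genes tested had median differences of -0.0021 and 0.06 on the log2(RPKM + 1) scale. The levels of the 35 in replicate 1 run from 0.0167 to 328 RPKM.

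The promoters of 8 genes are shown because they stand at the 2 ends of this pattern. HJURP, PLK1, PTTG1, AURKB and CDC20 had the largest differences when the smaller of their 2 pair values is taken, among the 29 genes with a promoter window in the RefSeq table. ASPM, GTSE1 and MKI67 are those of the 29 with opposite signs. Each line gives the 250 bases before the annotated start, 5′ to 3′ on the gene's strand, from RefSeq (GRCh38.p14). Capitals mark 2 elements known from mitotic promoters, on either strand: the cell cycle homology region (CHR, TTTGAA or TTCGAA) and the CCAAT box bound by NF-Y. The coordinates are chr2:233854536-233854785 (minus strand) for HJURP, chr16:23678639-23678888 (plus) for PLK1, chr5:160421605-160421854 (plus) for PTTG1, chr17:8210226-8210475 (minus) for AURKB, chr1:43358731-43358980 (plus) for CDC20, chr1:197146670-197146919 (minus) for ASPM, chr22:46296620-46296869 (plus) for GTSE1 and chr10:128126424-128126673 (minus) for MKI67. For PTTG1 and AURKB this is the first of 2 listed starts.
HJURP: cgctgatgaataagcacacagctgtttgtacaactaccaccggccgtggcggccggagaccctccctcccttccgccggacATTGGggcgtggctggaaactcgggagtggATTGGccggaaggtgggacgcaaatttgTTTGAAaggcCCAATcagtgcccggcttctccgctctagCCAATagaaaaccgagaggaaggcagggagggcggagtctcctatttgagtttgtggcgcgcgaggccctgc
PLK1: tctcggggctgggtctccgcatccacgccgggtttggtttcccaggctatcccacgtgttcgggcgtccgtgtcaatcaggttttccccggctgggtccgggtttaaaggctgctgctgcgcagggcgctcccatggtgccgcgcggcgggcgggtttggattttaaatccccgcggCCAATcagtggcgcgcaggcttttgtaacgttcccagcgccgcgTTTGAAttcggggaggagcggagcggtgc
PTTG1: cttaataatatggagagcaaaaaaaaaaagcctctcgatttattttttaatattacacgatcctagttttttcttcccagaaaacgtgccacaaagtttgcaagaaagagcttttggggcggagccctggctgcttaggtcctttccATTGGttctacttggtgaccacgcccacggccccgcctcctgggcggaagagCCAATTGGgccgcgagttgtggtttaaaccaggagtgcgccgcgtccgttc
AURKB: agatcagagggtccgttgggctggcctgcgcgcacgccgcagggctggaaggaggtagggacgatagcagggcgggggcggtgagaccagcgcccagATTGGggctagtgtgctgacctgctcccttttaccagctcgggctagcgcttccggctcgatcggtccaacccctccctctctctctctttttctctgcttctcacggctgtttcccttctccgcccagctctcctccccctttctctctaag
CDC20: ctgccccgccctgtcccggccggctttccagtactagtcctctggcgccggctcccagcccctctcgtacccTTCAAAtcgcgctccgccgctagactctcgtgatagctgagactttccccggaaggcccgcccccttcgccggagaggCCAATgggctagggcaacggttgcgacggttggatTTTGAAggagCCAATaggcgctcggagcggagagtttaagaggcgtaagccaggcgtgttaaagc
ASPM: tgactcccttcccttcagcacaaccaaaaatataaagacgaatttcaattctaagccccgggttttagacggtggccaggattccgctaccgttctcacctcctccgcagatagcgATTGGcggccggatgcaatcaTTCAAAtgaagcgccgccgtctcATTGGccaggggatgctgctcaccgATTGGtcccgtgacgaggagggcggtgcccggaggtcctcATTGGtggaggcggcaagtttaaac
GTSE1: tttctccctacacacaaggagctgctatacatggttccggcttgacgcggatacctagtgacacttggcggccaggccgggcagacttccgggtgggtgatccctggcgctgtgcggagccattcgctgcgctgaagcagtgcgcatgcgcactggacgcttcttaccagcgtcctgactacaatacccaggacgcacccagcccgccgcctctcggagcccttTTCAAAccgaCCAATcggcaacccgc
MKI67: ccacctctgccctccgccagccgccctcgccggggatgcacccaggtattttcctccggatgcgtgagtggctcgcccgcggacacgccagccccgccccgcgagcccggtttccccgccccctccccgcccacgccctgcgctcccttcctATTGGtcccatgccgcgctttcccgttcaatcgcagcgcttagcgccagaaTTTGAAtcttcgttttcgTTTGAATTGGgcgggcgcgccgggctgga
The windows of HJURP and PLK1 each hold 1 CHR, that of CDC20 holds 2, and those of PTTG1 and AURKB hold CCAAT boxes (1 in AURKB) without a CHR. The windows of ASPM, GTSE1 and MKI67 hold 1, 1 and 2 CHRs, so both ends of the pattern have windows with the element. In PTTG1 a run of CCAATTGG is 2 overlapping CCAAT boxes, and in MKI67 a CHR overlaps a CCAAT box.

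The libraries were read to a depth of 37134267 and 29429964 reads (ISL1) and 32289510 and 34274524 reads (blank), worked out from how low RPKM values step. ISL1 stood at 8.22 (ISL1) and 0.0454 (blank) RPKM in the first pair, and at 1801 (ISL1) in the second, where it was listed at 0 in the blank library. ISL2 stood at 2.08 (ISL1) and 4.57 (blank) in the first pair and at 13.2 (ISL1) and 3.23 (blank) in the second. Hepatoma markers were abundant throughout, with AFP at 4276 to 11542 RPKM. The 14 hepatocyte markers summed to 23362 (ISL1) and 22714 (blank) RPKM in the first pair and to 12631 (ISL1) and 26645 (blank) in the second. Of 10 cardiac muscle markers, 9 reached 1 RPKM in the second ISL1 library, but 1 did in the second blank library, with sums of 70.1 (ISL1) and 11.5 (blank) RPKM. MYL7, a myosin light chain, had 12.2 RPKM in that ISL1 library and was listed at 0 in that blank library. In the first pair 1 of the 6 listed reached 1 RPKM in either library (sums 5.70 with ISL1 and 13.2 with blank). Of 10 erythroid markers listed in the second pair, 0 reached 1 RPKM in the ISL1 library and 5 in the blank library (sums 1.93 with ISL1 and 1033 with blank). The first pair lists 2 of them, with sums of 0.0653 (ISL1) and 0.112 (blank) RPKM. HBB, a globin, was listed at 0 in the second ISL1 library and stood at 398 RPKM in the second blank library. Endothelial markers summed to 2.495 (ISL1) and 8.61 (blank) RPKM, then 1.51 (ISL1) and 10.6 (blank), and biliary and intestinal markers to 158 (ISL1) and 241 (blank), then 194 (ISL1) and 324 (blank), so both sums were lower with ISL1 in both pairs. Most of the endothelial sum is PECAM1. Leukocyte markers summed to 50.3 (ISL1) and 53.9 (blank), then 100.9 (ISL1) and 118 (blank), and stromal markers to 4.14 (ISL1) and 2.99 (blank), then 13.1 (ISL1) and 7.62 (blank). The part of these transcripts in the differences of the mitotic genes was not tested.

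Among the kinases, PLK1 and AURKB were about as far apart in the 2 pairs, and NEK2 more so in the second. PLK1, the Polo kinase of spindle formation and mitotic entry, had 49.4 (ISL1) and 24.4 (blank) RPKM in the first pair and 76.0 (ISL1) and 38.1 (blank) in the second. Both ISL1 libraries lay above both blank ones. The RPKM ratio of ISL1 over blank was 2.02 (95% counting interval 1.91 to 2.14) and 1.99 (1.87 to 2.13). These intervals come from the recovered reads, which are lower limits, and cover counting error only. AURKB, the Aurora kinase of the chromosomal passenger complex, had 6.54 (ISL1) and 3.06 (blank) RPKM in the first pair and 131.5 (ISL1) and 68.8 (blank) in the second, with ratios of 2.13 and 1.91. AURKA, the Aurora kinase of the spindle poles, had 2.66 (ISL1) and 1.53 (blank), then 64.1 (ISL1) and 43.4 (blank). Its ratios were 1.74 and 1.48. NEK2, a kinase of centrosome separation, had 7.22 (ISL1) and 3.87 (blank), then 60.2 (ISL1) and 21.6 (blank), with ratios of 1.86 (1.61 to 2.16) and 2.79 (2.62 to 2.97). For AURKA, AURKB and NEK2 the groups overlap, because both libraries of the first pair lie below both of the second.

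The 2 phosphatases that activate CDK1 had smaller differences on the log2(RPKM + 1) scale, 0.39 and 0.34 for CDC25C and 0.08 and 0.47 for CDC25B. CDC25C had 2.32 (ISL1) and 1.54 (blank) RPKM in the first pair and 18.9 (ISL1) and 14.7 (blank) in the second. Its ratios were 1.51 (1.18 to 1.94) and 1.28 (1.07 to 1.53). CDC25B was almost unread in the first pair, at 0.0728 (ISL1) and 0.0167 (blank) RPKM from at least 10 and 2 reads. Its ratio of 4.35 there has an interval of 0.927 to 40.8, which holds 1 if the reads are these smallest numbers. In the second pair it stood at 31.9 (ISL1) and 22.7 (blank), a ratio of 1.41 (1.34 to 1.48).

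All 4 checkpoint genes stood higher with ISL1 in both pairs as deposited, and 3 of them without overlap between the groups. Over all genes tested, both ISL1 libraries lay above both blank ones for 5.52%. BUB1, a kinase at unattached kinetochores, had 26.2 (ISL1) and 11.5 (blank) RPKM in the first pair and 34.4 (ISL1) and 19.1 (blank) in the second, with ratios of 2.27 and 1.80. BUB1B, which encodes BubR1 of the mitotic checkpoint complex, had 34.1 (ISL1) and 15.8 (blank), then 28.7 (ISL1) and 20.2 (blank). Its ratio was smaller in the second pair, at 1.42 (1.30 to 1.56) against 2.16 (2.05 to 2.28) in the first. MAD2L1, the MAD2 protein that binds and holds back CDC20, had 68.3 (ISL1) and 27.7 (blank), then 50.2 (ISL1) and 43.9 (blank). Its ratio was 2.47 in the first pair, then 1.14 (1.08 to 1.21) in the second, where median-ratio scaling turned the log2 difference to -0.0074. TTK, the MPS1 kinase at the head of the checkpoint, had 1.43 (ISL1) and 0.667 (blank) RPKM in the first pair and 39.0 (ISL1) and 17.6 (blank) in the second, ratios of 2.14 (1.59 to 2.90) and 2.22 (2.10 to 2.35), and its groups overlap.

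At the centromere, the histone H3 variant and its loader stood higher in both pairs. HJURP, the chaperone that deposits CENPA, had 28.9 (ISL1) and 11.6 (blank) RPKM in the first pair and 52.2 (ISL1) and 21.5 (blank) in the second. Its ratios were 2.49 (2.33 to 2.67) and 2.42 (2.30 to 2.55), close to each other, and its groups did not overlap. The pooled log2 fold change of HJURP was 1.24 (SE 0.54, n = 2 libraries a group, limma adjusted p = 1.00). CENPA, the centromeric histone itself, had 1.28 (ISL1) and 0.822 (blank), then 19.9 (ISL1) and 8.81 (blank), with ratios of 1.56 (1.03 to 2.38) and 2.26 (2.01 to 2.55).

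Of the outer kinetochore proteins, CENPE, a motor that moves chromosomes to the spindle equator, had 9.12 (ISL1) and 4.63 (blank) RPKM in the first pair and 11.3 (ISL1) and 6.30 (blank) in the second. Its ratios were 1.97 and 1.79, with no overlap between the groups. CENPF, a large kinetochore protein, had 24.2 (ISL1) and 8.84 (blank), then 20.6 (ISL1) and 17.6 (blank). That is 2.74 (2.63 to 2.86) in the first pair, then 1.17 (1.13 to 1.21) in the second. The passenger subunits BIRC5, or survivin, and CDCA8, or borealin, were low in the first pair. BIRC5 had 3.56 (ISL1) and 1.48 (blank), then 56.1 (ISL1) and 47.8 (blank), ratios of 2.41 and 1.17. CDCA8 had 1.29 (ISL1) and 0.582 (blank), then 39.9 (ISL1) and 26.3 (blank), ratios of 2.22 and 1.52.

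The spindle proteins were the largest role, with 6 of 8 higher in both pairs and ASPM and GTSE1 of opposite sign. TPX2, which targets Aurora A to microtubules, had 120.1 (ISL1) and 50.7 (blank) RPKM in the first pair and 139 (ISL1) and 80.5 (blank) in the second, ratios of 2.37 and 1.73 without overlap. Its pooled log2 fold change was 1.00 (SE 0.36, n = 2 libraries a group, limma adjusted p = 1.00, unadjusted p = 0.054). KPNA2, the importin that holds TPX2 inactive until it is released near chromosomes, was the most abundant of the 35 in the first pair. It had 328.3 (ISL1) and 154.5 (blank), then 213.5 (ISL1) and 184.7 (blank), ratios of 2.12 and 1.16. DLGAP5 stabilises kinetochore fibres. It had 1.54 (ISL1) and 0.763 (blank), then 38.2 (ISL1) and 25.5 (blank). NUSAP1, a microtubule bundler, had 2.47 (ISL1) and 1.17 (blank), then 85.6 (ISL1) and 62.8 (blank). HMMR, a spindle-associated hyaluronan receptor, had 0.548 (ISL1) and 0.345 (blank), then 24.6 (ISL1) and 12.8 (blank). CKAP2, a microtubule-binding protein, had 0.858 (ISL1) and 0.373 (blank), then 33.5 (ISL1) and 16.8 (blank). The ratios of these 4 genes ran from 1.59 to 2.30 in the first pair, then from 1.36 to 1.99 in the second.

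ASPM and GTSE1 stood higher with ISL1 in the first pair and lower in the second. ASPM, a spindle pole protein, had 11.02 (ISL1) and 4.46 (blank) RPKM in the first pair and 11.6 (ISL1) and 15.1 (blank) in the second, so its 2 ISL1 values were close to each other and its blank values were not. The ratios were 2.47 (2.33 to 2.62) and 0.770 (0.739 to 0.803). GTSE1, which tracks microtubule ends, had 16.1 (ISL1) and 6.88 (blank), then 11.3 (ISL1) and 12.1 (blank). Its ratio in the second pair was 0.932, with an interval of 0.858 to 1.01 that holds 1.

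The 4 cytokinesis genes were all higher with ISL1 in both pairs, and ANLN without overlap. ANLN, the anillin scaffold of the contractile ring, had 43.0 (ISL1) and 20.1 (blank) RPKM in the first pair and 34.4 (ISL1) and 24.6 (blank) in the second, ratios of 2.14 and 1.398. CEP55, which recruits the abscission machinery to the midbody, had 1.399 (ISL1) and 0.863 (blank), then 69.5 (ISL1) and 24.3 (blank). Its ratio of 2.86 (2.72 to 3.004) was the highest of the 35 in the second pair, against 1.62 (1.07 to 2.49) in the first. PRC1 crosslinks the microtubules of the midzone. It had 1.49 (ISL1) and 1.004 (blank), then 66.0 (ISL1) and 47.6 (blank), ratios of 1.48 and 1.39. ECT2, the exchange factor that activates RhoA at the cell equator, had 1.24 (ISL1) and 0.644 (blank), then 46.3 (ISL1) and 30.2 (blank), ratios of 1.93 and 1.53.

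All 4 genes of the ubiquitin ligase role stood higher with ISL1 in both pairs, with median differences of 1.16 and 0.82 on the log2(RPKM + 1) scale and median RPKM ratios of 2.41 and 1.78. CDC20, the activator of the anaphase-promoting complex, had 79.7 (ISL1) and 44.4 (blank) RPKM in the first pair and 149 (ISL1) and 55.1 (blank) in the second. Its groups did not overlap, its ratios were 1.79 (1.71 to 1.88) and 2.71 (2.60 to 2.82), and its pooled log2 fold change was 1.13 (SE 0.43, n = 2 libraries a group, limma adjusted p = 1.00). UBE2C, the conjugating enzyme of that ligase, had 3.40 (ISL1) and 0.935 (blank), then 338 (ISL1) and 209.7 (blank), with ratios of 3.63 (2.61 to 5.15) and 1.61 (1.55 to 1.68). PTTG1, the securin that the ligase destroys at anaphase, had 151 (ISL1) and 68.0 (blank), then 389 (ISL1) and 200.5 (blank). Its ratios were 2.23 and 1.94; PTTG1 has close retrocopies in the genome whose reads may not be separable. CDCA3, a trigger of mitotic entry that works with another ubiquitin ligase, had 41.0 (ISL1) and 15.7 (blank), then 42.7 (ISL1) and 33.7 (blank), ratios of 2.60 and 1.27.

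The 3 chromatin and transcription members had median RPKM ratios of 2.58 and 0.918. On the log2(RPKM + 1) scale the medians were 0.24 and -0.12, where the added 1 RPKM shrinks the first-pair values of MKI67 and FOXM1. TOP2A, the topoisomerase that untangles sister chromatids, had 148 (ISL1) and 57.6 (blank) RPKM in the first pair and 123.7 (ISL1) and 109.7 (blank) in the second, ratios of 2.58 and 1.13. MKI67, the Ki-67 protein that coats mitotic chromosomes, had 0.863 (ISL1) and 0.577 (blank), then 25.6 (ISL1) and 35.6 (blank). That is 1.496 (1.27 to 1.77) in the first pair, then 0.720 (0.702 to 0.739) in the second. FOXM1, a transcription factor that activates G2 and M genes, had 0.2204 (ISL1) and 0.0676 (blank), from at least 30 and 8 reads, then 31.0 (ISL1) and 33.8 (blank). Its ratio was 3.26 (1.46 to 8.23) in the first pair, then 0.918 (0.876 to 0.961) in the second. FOXM1 and MKI67 thus stood lower with ISL1 in the second pair, where CDC20, PLK1 and CENPA stood higher.

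**Figure D2:**
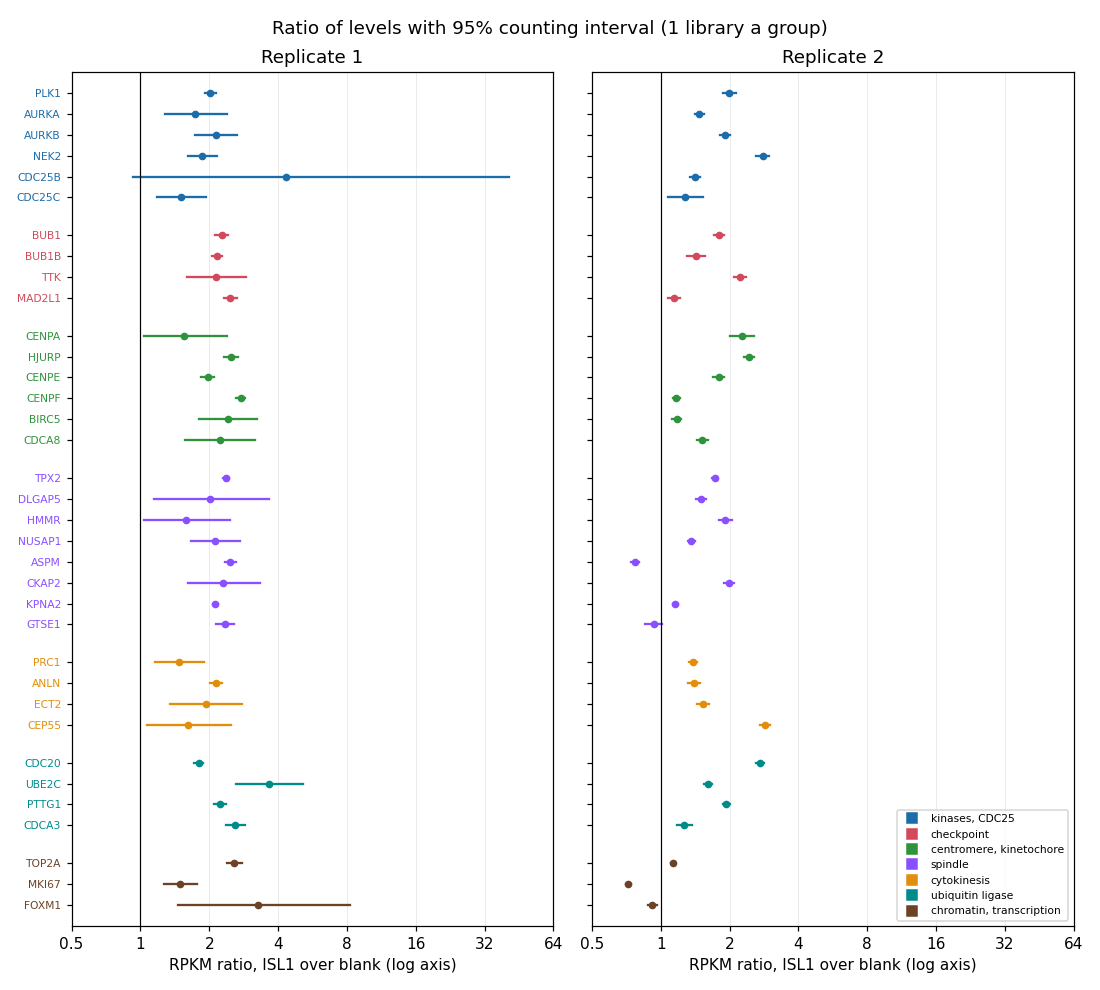
RPKM ratio of ISL1 over blank (log axis) with its 95% counting interval for each gene, in replicate 1 (left) and replicate 2 (right); intervals cover counting error only, and the vertical line marks a ratio of 1. In replicate 1 only the interval of CDC25B (0.927 to 40.8) reaches 1, and in replicate 2 only that of GTSE1 (0.858 to 1.01) does; ASPM, MKI67 and FOXM1 lie below 1 in replicate 2.

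Counted by size, 21 of the 35 genes were at least 1.5-fold higher with ISL1 in the first pair, then 16 in the second, on the log2(RPKM + 1) scale. The share of all genes tested was 5.99% in the first pair, then 17.8% in the second. None of the 35 was at least 1.5-fold lower in either pair, where 7.03% and 12.3% of all genes were. Past 1.5-fold higher in both pairs were 10 of the 35, against 0.713% of all genes, and 0 were past it lower in both, against 0.821%. The 10 were PLK1, AURKB, NEK2, BUB1, HJURP, CENPE, TPX2, CDC20, UBE2C and PTTG1. For 13 of the 35 both ISL1 libraries lay above both blank ones, against 5.52% of all genes, and for 0 they lay below, against 5.08%. The count was 6 with median-ratio scaling, against 2.07% of all genes, and 8 with quantile normalization, against 2.61%. The 35 genes were chosen with earlier results of these data known, so these counts describe them and test nothing.

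**Figure D3:**
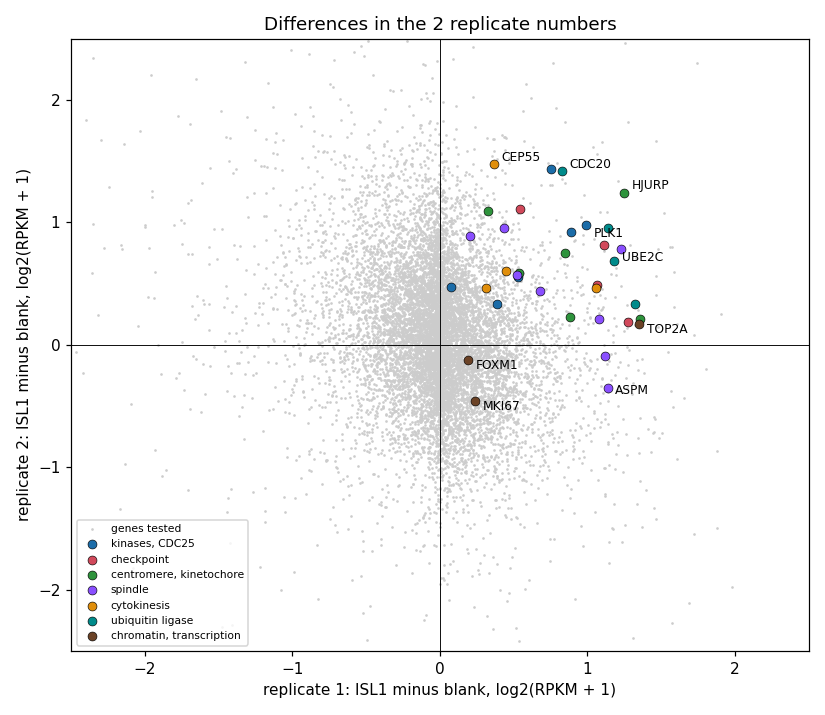
Difference of ISL1 minus blank on the log2(RPKM + 1) scale in replicate 1 (horizontal) and replicate 2 (vertical) for all genes tested (grey) and the 35 mitotic genes (coloured by role). Of the 35, 31 lie in the upper right part and 4 in the lower right. Of all genes tested, 23.1% were higher in both pairs. Beyond the axis limit of 2.5 lie 49 of the 11085 genes.

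The order of the 35 genes was not alike in the 2 pairs. CENPF, TOP2A, CDCA3 and MAD2L1 had the 4 largest log2 differences in the first pair (1.36, 1.35, 1.33 and 1.27) and small ones in the second (0.21, 0.17, 0.33 and 0.19). CEP55, NEK2, CDC20 and HJURP led the second pair, at 1.48, 1.44, 1.42 and 1.24. Spearman's rho between these differences in the 2 pairs was -0.15 across the 35 genes, which share their libraries and are not independent. It was -0.32 between the RPKM ratios, where CDC25B, UBE2C and FOXM1, all low in the first pair, rank highest there. Only HJURP was in the top 5 of the first pair and the top 4 of the second.

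The level of many of these genes differed between the replicate numbers by far more than between the groups. For 19 of the 35 (54.3%) the summed level of the first pair was under 20% of that of the second, from 0.164% to 13.5%, against 43.5% of all genes tested. For the other 16 it was 37.2% to 121%. The 19 had a median of 4 RefSeq coding transcripts and 0 of them had 1, and the 16 had a median of 1.5 and 8 of them had 1. These transcript numbers need not be those of the annotation behind the RPKM values, which is not given. They were not worked out for the other genes tested. The smallest transcript length that fits the values was the same in both pairs for 17 genes. Among the 19 low genes it was the same for TTK, CENPA, HMMR and MKI67 only, and it differed for the rest. Being the smallest that fits, such a length need not be the true one. MKI67 had a length of 12507 bases in both pairs. Its reads were 401 (ISL1) and 233 (blank) in the first pair against 9436 (ISL1) and 15265 (blank) in the second. The cause of the low values in the first pair was not tested.

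This split, made after the values were seen, touches how the differences read. Among the 16 genes with comparable levels the median ratio was 2.30 in the first pair, then 1.41 in the second. In each of the 19 both first-pair libraries lie below both second-pair ones, so their groups overlap by the way the split is made. Among the 19 the median ratio was 2.01 and 1.52, and the added 1 RPKM shrinks their differences in the first pair to a median of 0.45 on the log2 scale, against 1.13 for the 16. With an added 0.1 RPKM, 29 of the 35 were at least 1.5-fold higher in the first pair, then 17 in the second, against 11.3% and 20.8% of all genes.

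Other genes of mitosis, from lists of function that hold none of the 35, were set beside them. Of 120 listed, 116 were tested. Of these, 51 stood higher with ISL1 in both pairs, 6 lower in both and 59 on opposite sides, with medians of 0.33 and 0.03. None passed limma in either direction. The other spindle and cytokinesis genes had 16 of 17 higher in both pairs (medians 0.73 and 0.19), and the other kinetochore and checkpoint genes 19 of 38 (0.42 and 0.06). Condensin subunits, which compact mitotic chromosomes, had medians of 1.03 and -0.29, with 7 of 8 on opposite sides. NCAPD2, for example, had 60.4 (ISL1) and 26.8 (blank) RPKM in the first pair and 53.7 (ISL1) and 70.4 (blank) in the second. Subunits and regulators of the anaphase-promoting complex had 6 of 17 higher in both pairs, at medians of 0.19 and -0.11. Cohesin genes, which hold sister chromatids together, had 0.07 and 0.13, with 4 of 13 higher in both. Entry regulators had medians of 0.23 and -0.02, and the DREAM and MMB transcription regulators 0.20 and -0.17, with 10 of 14 on opposite sides. Among those at least 1.5-fold higher in both pairs were BORA, CKS2, TACC3 and CKAP2L, which are named after their values were seen. CKS2, a CDK-binding subunit, had 187 (ISL1) and 105 (blank), then 575 (ISL1) and 225 (blank) RPKM. TACC3, a stabiliser of kinetochore fibres, had 89.3 (ISL1) and 36.0 (blank), then 155 (ISL1) and 87.4 (blank).

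Set beside the groups of genes most like them, the 35 genes had medians of 0.85 and 0.57. Mitotic kinesins had 0.89 and 0.39, with 10 of 13 higher in both pairs, and cyclins, their kinases and inhibitors had 0.65 and 0.32, with 8 of 19. G1/S and DNA replication genes had 0.94 in the first pair, then -0.80 in the second, with 35 of 39 on opposite sides. By these medians the S-phase and mitotic groups were both higher with ISL1 in the first pair. In the second the 35 genes, the kinesins and the cyclin list were higher and the S-phase genes lower. The 116 other mitotic genes tested had a second-pair median of 0.03, against 0.06 over all genes tested. Condensin subunits had -0.29 there. The difference between these groups was not tested.

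**Figure D4:**
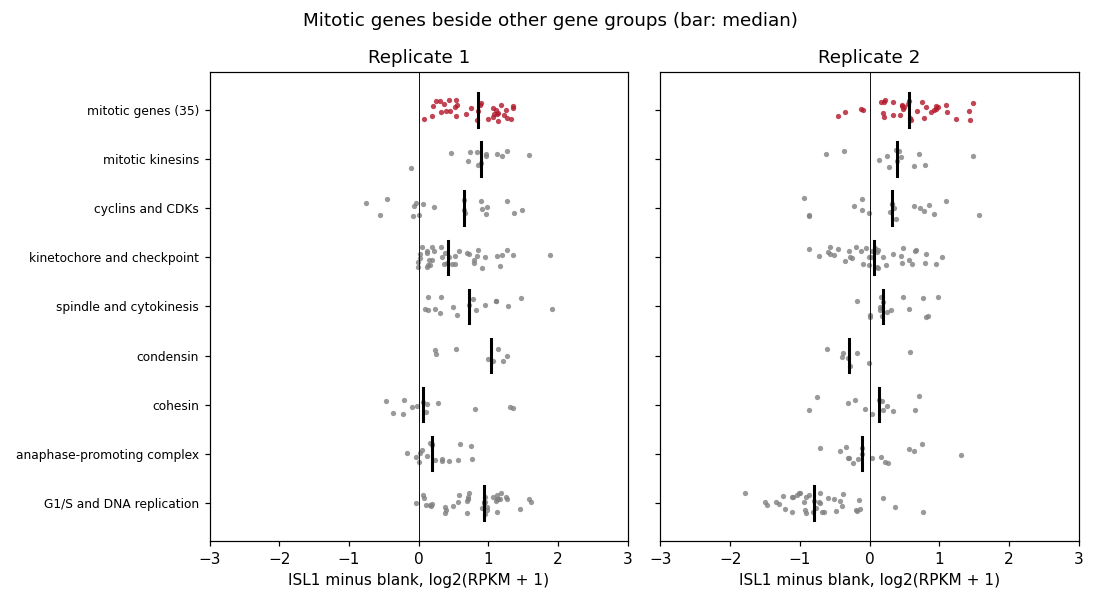
Difference of ISL1 minus blank on the log2(RPKM + 1) scale for each gene of the 35 (red) and of 8 other groups (grey), in replicate 1 (left) and replicate 2 (right); points are genes and bars are medians, with vertical scatter only to separate points. The median of G1/S and DNA replication genes is 0.94 in replicate 1 and -0.80 in replicate 2, and that of the 35 genes 0.85 and 0.57.

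A promoter window of 300 bases (250 before and 50 after the annotated start) was found by symbol for 29 of the 35 genes. The windows not used here are those of AURKA, TTK, BIRC5, TPX2, UBE2C and FOXM1. A CHR (TTTGAA or TTCGAA, either strand; TTCGAA reads the same on both) was present in 22 of 29 windows, or 75.9%. It was present in 16.6% of 27305 windows of the table, 1 per symbol, and in 11.02% of those of 8436 tested genes. In 18 of the 29 it began within 50 bases of the start, against 5.05% of all windows and 3.24% of those of tested genes. The CCAAT box was present in 23 of 29 (79.3%), against 35.7% of all windows and 37.1% of those of tested genes, and both elements in 20 of 29 (69.0%), against 6.58% and 4.72%. The LIM-homeodomain core TAATG was present in 2 of 29 (6.90%), those of BUB1B and CENPF, against 23.99% of all windows and 13.6% of those of tested genes. The 22 genes with a CHR in the window had median RPKM ratios of 2.13 and 1.41, and the 7 without (AURKB, NEK2, CDC25B, CDC25C, CENPE, CKAP2 and PTTG1) 2.13 and 1.91. The medians on the log2(RPKM + 1) scale were 1.02 and 0.48 with a CHR and 0.75 and 0.92 without, and no test compares these sets. A match is a description of the letters and not a site of binding, and the lack of one says only that the letters are not in this window.

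**Figure D5:**
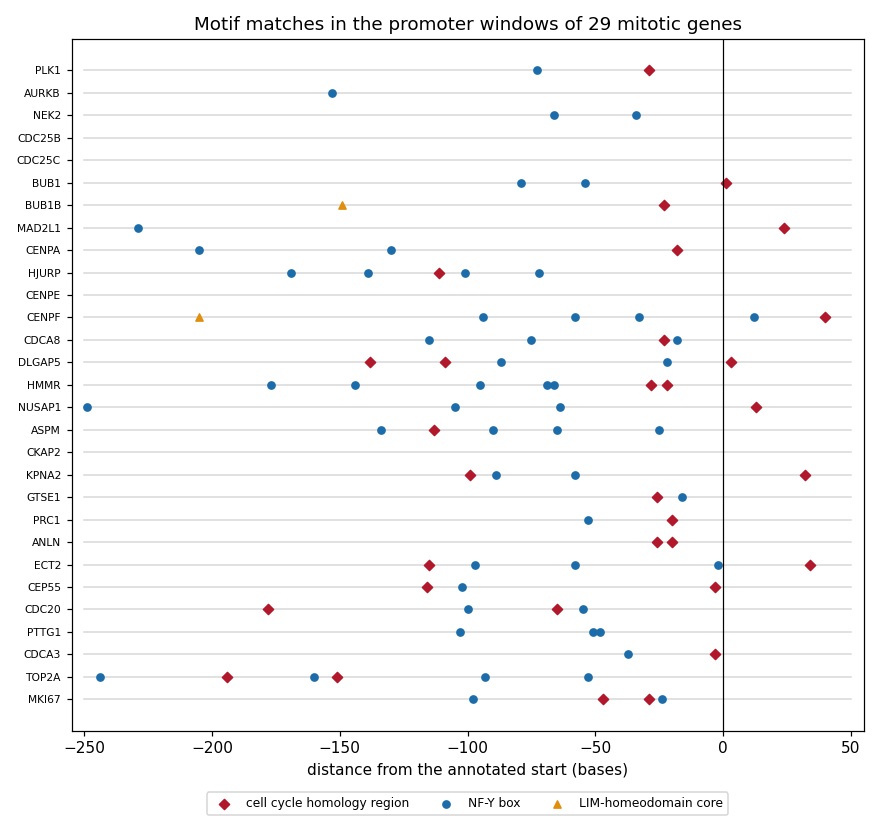
Positions of matches to the cell cycle homology region (diamonds), the NF-Y box (circles) and the LIM-homeodomain core (triangles) in the promoter windows of 29 genes, as distance in bases from the annotated start. Cell cycle homology regions lie in 22 of the 29 windows, and in 18 of them within 50 bases of the start.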

How the data were processed

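Total RNA of 4 Huh7 libraries was sequenced. For each library the authors deposited RPKM values by gene symbol, without counts. The submitters' processing notes name hg19 as build and BWA and CASAVA 1.4 as tools; annotation, counting program and use of strand are not given in the sources at hand. Replicate 1 lists 16640 genes and replicate 2 lists 17197, of which 14055 are in all 4 libraries.

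The 35 genes and the lists were chosen with earlier results of these data known. The 11085 genes that reached 1 RPKM in 2 or more libraries were tested with limma 3.58.1 (R 4.3.3; trend, no block, two-sided, Benjamini-Hochberg over all genes, threshold 0.05) on log2(RPKM + 1), which understates changes of low genes. Every member is named; other genes are named where a result turns on them. Differences within a pair are called at 1.5-fold and carry no test.

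Depth was recovered from steps between RPKM values. Of genes under 5 RPKM in both libraries of a pair, 96.5% (replicate 1) and 94.4% (replicate 2) had a ratio between their 2 values made of whole numbers no larger than 500 (relative tolerance 3e-07), against 14.7% and 15.1% after multiplying by an arbitrary factor. The depth was then taken as the largest that left most implied lengths whole (83.4% and 70.6%). A gene's reads are the smallest whole numbers that its 2 values allow, so they are lower limits. Ratio intervals are exact binomial (Clopper-Pearson, 95%). One read in 1 kb was worth 0.0269 and 0.034 RPKM (ISL1) and 0.031 and 0.0292 RPKM (blank). A count of 0 allows up to 3 reads. Alternatives were pseudocounts of 0.1 and 5, no filter and a filter of 5 RPKM, 3 scalings, no trend, the replicate block, a fold of 2 and each library left out. The test and the motif search were tested on simulated data. Scripts ran in Python 3.11.15 with matplotlib 3.10.9, SciPy 1.17.1, pandas 2.3.3 and NumPy 2.4.6.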

Additional observations from a re-analysis of the deposited data

How the results depend on the processing

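With 2 libraries a group and no word on separate cultures, the values describe these libraries. The 0 calls over all genes with limma stayed 0 under every alternative except quantile normalization, where 1 gene passed (none of the 35). No member passed under any alternative. The same replicate number is only a shared number in the labels. Deviations of same-numbered libraries from their group means correlated at 0.88 (Pearson, across 11085 genes). With the replicate block, 0 genes passed, 260 genes and 12 members had an unadjusted p under 0.05, and the lowest member p was 0.00547 (HJURP, limma adjusted p = 1.00). The cause of the changes below was not tested, beyond what each setting does by construction.

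The members' median was 0.50 in the first pair with a pseudocount of 5, and 0.36 in the second with median-ratio scaling. At least 2-fold higher were 6 members in the second pair and 1 in both pairs. In the first pair the count at 2-fold was larger and stayed within the limit for a count given below. The share of all genes at 2-fold was not worked out, so these counts have no background beside them. With a pseudocount of 5, 6 members were past 1.5-fold higher in both pairs (0.379% of all genes). Median-ratio scaling left 1 member at least 1.5-fold lower in the second pair (17.5% of all genes). It left 6 whose ISL1 libraries lay above both blank ones (2.07%), and quantile normalization 8 (2.61%). Of the 16 members with comparable levels, a choice made after seeing the data, 87.5% stood higher in both pairs, against 88.6% of the 35. The pooled log2 fold change turned for FOXM1 (-0.0323 with a pseudocount of 5, -0.00015 with median-ratio scaling) and MKI67 (0.0183 with a pseudocount of 0.1).

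Leaving out 1 library at a time, where the lone library is assumed to vary like the other group, turned the pooled log2 fold change of 20 members. These fits leave the replicate difference in the contrast: the median over all genes was 0.67 and -0.51 without the first ISL1 and the first blank library, and -0.60 and 0.60 without the second ones, against 0.03 with all 4. They therefore say little about the stability of a member. Their lowest and highest values were ASPM -0.39 and 1.17, AURKA -1.53 and 2.62, AURKB -1.16 and 2.98, BIRC5 -1.60 and 2.70, CDC25B -2.19 and 2.74, CDC25C -0.95 and 1.68, CDCA8 -1.52 and 2.64, CENPA -0.89 and 2.31, CEP55 -1.52 and 3.36, CKAP2 -1.41 and 2.80, DLGAP5 -1.43 and 2.52, ECT2 -1.67 and 2.72, FOXM1 -2.48 and 2.55, HMMR -1.48 and 2.57, MKI67 -2.38 and 2.16, NEK2 -0.35 and 2.54, NUSAP1 -1.88 and 3.001, PRC1 -1.99 and 2.76, TTK -1.20 and 2.85 and UBE2C -2.45 and 4.32. The other 15 members kept a positive value, from 0.14 to 1.82. Of the results that answer a comparison, 115 values under alternatives stayed within their limits and 9 moved, given above. The limit was 1.5-fold for a count and, for a median, the SD of the 2 pair medians. Of single-gene log2 fold changes 413 kept their sign without a new call and 42 turned. The replicate block, both filter settings and the fit without trend cannot change these fold changes. Neither filter setting could change the members' medians or pair counts, as all 35 passed both. The tally is therefore no measure of stability.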
